A study of Homo sapiens with 6 samples.

Results

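Collagens are the main structural proteins of the extracellular matrix. Each molecule is a triple helix of alpha chains, and each chain has its own gene, named COL followed by the collagen type and the chain. The genes described here are those whose symbol has exactly that form, 44 of the 54628 gene symbols counted. By textbook class they are 11 chains of fibrillar collagens, 6 chains of type IV collagen, which forms the network of basement membranes, 10 chains of FACIT collagens, which sit on the surface of fibrils, and 17 chains of other collagens. The last class holds the beaded filaments of type VI, the anchoring fibrils of type VII, the network-forming types VIII and X, the membrane-spanning types XIII, XVII, XXIII and XXV, the multiplexins of types XV and XVIII, and types XXVI and XXVIII.

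The study sequenced mRNA of U87, an established human glioblastoma cell line, recovered from a co-culture with a flow cytometric sorter. The cells, all labelled cycling, fall into those that had received mitochondria (received, n = 3) and those that had not (not received, n = 3). The series title names astrocytes as the source of the mitochondria. The labels give neither the kind or species of the co-cultured cells, nor how receipt was scored, nor whether each replicate is its own culture; the p-values therefore cover only how these libraries vary. All libraries come from the same line, which limits the data as a model of glioblastoma. The normal brain parenchyma holds little fibrillar collagen outside its vessels.

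Totals ran from 17879552 to 21314558 counts for the received libraries and from 18549585 to 46392491 for the not-received ones. Over the groups they summed to 57469446 and 86092124. Count sums given below for untested genes are not scaled for this difference in depth. Not-received replicate 2, the deepest library, stood at -37.3 on the first principal component of all tested genes, where the other libraries of its group stood at -11.0 and -10.7 and the received libraries at 15.3 to 22.0. VIM, the intermediate filament of mesenchymal cells, was at 4680 ± 113 CPM (counts scaled to library size and TMM composition factors) in received and 3918 ± 333 CPM in not-received cells (SD, 3 libraries a group). Of 10 astrocyte markers, AQP4, ALDH1L1 and GJB6 had 0 counts in all libraries and GFAP was at 0.445 CPM or less in received and 0.597 CPM or less in not-received libraries. The summed level of the astrocyte markers was 96.3 to 107 CPM in received and 103 to 113 CPM in not-received libraries, nearly all of it from ALDOC, SOX9 and SLC1A3. Only these 3 of the 10 passed the low-count filter and were tested. SOX9 was called higher in received cells. ALDOC and SLC1A3 had log2 fold changes of -0.21 and -0.20 and were not called (edgeR adjusted p = 0.0637 and 0.161). Of 6 markers of U87 and mesenchymal glioma 3, VIM among them, were called higher and 3 lower. Over all tested genes 9.21% were called higher and 9.67% lower. The part of these differences between libraries in the results on collagens was not tested.

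Rose and fell mean here higher or lower in received than in not-received cells. There is no library from before receipt, and whether the differences preceded it was not tested. Among mitochondria-receiving cells the type VI chains COL6A1 and COL6A2 rose 1.5-fold and 1.41-fold, and COL4A2 rose 1.23-fold. The membrane-spanning chains COL17A1 and COL13A1 fell, to 0.389 and 0.568 times the not-received level, and the network-forming chain COL8A1 fell to 0.778 times that level. The abundant type I chains COL1A1 and COL1A2 were not called, with fold changes of 0.998 and 1.02.

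These calls come from edgeR's quasi-likelihood test over all genes that passed a low-count filter, with Benjamini-Hochberg adjustment over 14100 genes and a call at an adjusted p under 0.05. Of the 44 collagens 24 passed the filter, and 3 of them rose and 3 fell, which is 25% of those tested. Over all genes 18.9% were called, 9.21% higher and 9.67% lower, so the share of collagens called is near the background. The median log2 fold change was 0.0067 over the 24 collagens and -0.0012 over all genes tested. By class, 0 of 6 fibrillar, 1 of 5 type IV, 0 of 4 FACIT and 5 of 9 other chains were called. In 11 of the 24 collagens the groups did not overlap, with all received libraries above the not-received libraries in 6 and below them in 5, which is 45.8%, where 39.0% of all tested genes did so (19.5% above and 19.5% below). At an unadjusted p under 0.05 edgeR had 11 of the 24 collagens, namely 1 fibrillar, 2 type IV, 2 FACIT and 6 other chains. The share of all genes under that unadjusted threshold was not computed, so whether 11 of 24 is more than the background cannot be judged. DESeq2 called 1 fibrillar chain, COL27A1, and limma-voom called no chain beyond the 6. Without any 1 received library the calls over all genes numbered 1295 to 1409 where all libraries gave 2662, and 5 collagens stayed called. Without not-received replicate 3, 2 collagens were called higher and 5 lower.

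The sequences just upstream of 5 of these genes are given as description, and the genes were chosen by how they differed. COL6A2 rose and its partner chain COL6A3 was not called, and COL13A1 and COL17A1 both fell. COL4A2 rose while its close neighbour COL4A1 had counts in not-received libraries only. The activity of these sequences was not measured. The COL4A2 call was lost in 5 of 13 alternatives, and COL4A1, untested under the filter, was called lower with no filter. Each is the 250 bases before the annotated start of the gene, read 5′ to 3′ on the strand of the gene, from RefSeq on GRCh38.p14. Capitals mark matches on either strand to TATAAA (the TATA box), CCAAT (the CCAAT box), GGGCGG (the GC box) or TGANTCA (the AP-1 type site). 32 of the 44 collagens had an entry in the promoter table, and the other 12 are COL1A1, COL1A2, COL2A1, COL3A1, COL5A2, COL9A3, COL14A1, COL20A1, COL22A1, COL6A1, COL6A5 and COL8A1.
COL6A2, chr21:46097862-46098111, plus strand: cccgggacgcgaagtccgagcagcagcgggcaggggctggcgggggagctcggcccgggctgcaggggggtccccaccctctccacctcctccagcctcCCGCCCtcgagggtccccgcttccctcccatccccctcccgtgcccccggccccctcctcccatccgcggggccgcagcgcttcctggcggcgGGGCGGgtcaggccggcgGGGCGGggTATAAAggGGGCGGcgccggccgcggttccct
COL6A3, chr2:237414165-237414414, minus strand: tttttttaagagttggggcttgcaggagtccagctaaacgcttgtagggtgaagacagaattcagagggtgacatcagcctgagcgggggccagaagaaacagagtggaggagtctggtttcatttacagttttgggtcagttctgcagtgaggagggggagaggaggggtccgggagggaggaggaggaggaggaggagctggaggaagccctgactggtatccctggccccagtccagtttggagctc
COL13A1, chr10:69801656-69801905, plus strand: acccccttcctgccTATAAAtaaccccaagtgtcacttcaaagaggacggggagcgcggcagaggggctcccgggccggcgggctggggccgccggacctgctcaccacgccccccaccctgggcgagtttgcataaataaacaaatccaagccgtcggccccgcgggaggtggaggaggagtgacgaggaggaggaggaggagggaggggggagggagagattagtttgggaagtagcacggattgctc
COL17A1, chr10:104085881-104086130, minus strand: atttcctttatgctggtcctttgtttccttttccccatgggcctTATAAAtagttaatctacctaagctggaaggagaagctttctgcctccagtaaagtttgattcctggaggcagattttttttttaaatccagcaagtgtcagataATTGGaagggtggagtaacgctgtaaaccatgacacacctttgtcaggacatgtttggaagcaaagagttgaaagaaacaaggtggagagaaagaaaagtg
COL4A2, chr13:110307034-110307283, plus strand: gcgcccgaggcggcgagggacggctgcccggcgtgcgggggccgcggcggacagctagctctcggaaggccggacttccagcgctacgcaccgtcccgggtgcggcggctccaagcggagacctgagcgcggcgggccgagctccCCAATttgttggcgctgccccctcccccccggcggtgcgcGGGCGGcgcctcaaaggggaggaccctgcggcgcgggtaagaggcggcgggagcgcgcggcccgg

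The COL6A2 window was 79.6% G and C and held 4 matches to GGGCGG and 1 to TATAAA, whose first base lies 32 bases before the start. The COL6A3 window was 56.0% G and C and held none of the 4 motifs. The COL13A1 and COL17A1 windows each held 1 match to TATAAA, but at 236 and 206 bases before the start. COL17A1 also held 1 match to CCAAT and was the most AT-rich of those shown (40.4% G and C, where the median of all windows was 58.0%). The COL4A2 window shares 126 bases with the corresponding window of COL4A1, since these genes lie head to head. TATAAA was found in 10.7% of the 35116 windows of the whole table, CCAAT in 32.0%, GGGCGG in 42.6% and TGANTCA in 6.57%. Such matches describe the letters of a window and are neither sites nor causes.

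Collagen transcripts took 1.13%, 1.13% and 1.12% of the counts of received libraries and 0.999%, 1.07% and 0.927% of those of not-received libraries, so the groups did not overlap. The difference of 0.130 percentage points came mostly from the class of other collagens, which took 0.539% ± 0.00651 of the counts of received and 0.430% ± 0.0445 of those of not-received cells (SD, 3 libraries a group). Fibrillar chains took 0.562% ± 0.00419 and 0.542% ± 0.0339. The 5 genes COL1A1, COL1A2, COL6A1, COL6A2 and COL6A3 held 85.7% to 86.4% of all collagen counts in received and 84.8% to 87.1% in not-received libraries. Within the collagen counts the type VI chains took 42.5% to 43.4% in received and 35.7% to 40.0% in not-received libraries, and the type I chains 42.8% to 43.5% and 44.9% to 49.2%. Neither of these pairs of ranges overlapped. As parts of the same total the shares are not independent, since a larger type VI share lowers the type I share. COL1A1 and COL1A2 themselves were not called.

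Per kilobase of coding length (longest coding sequence in GENCODE release 29) the order of the highest 6 was COL1A2, COL6A2, COL1A1, COL6A1, COL6A3 and COL5A1. COL1A2 stood at 714 ± 15.1 CPM per kb in received and 701 ± 17.4 CPM per kb in not-received libraries. COL6A2 followed with 643 ± 21.5 and 456 ± 26.5 CPM per kb. By this measure COL6A2 and COL1A1 (432 ± 45.8 CPM per kb) did not differ beyond their spread in not-received cells. In received cells COL6A2 lay above COL1A1 (431 ± 13.5 CPM per kb). Such an order between genes depends on the length used, as reads from untranslated exons may also have been counted. All annotated exons of COL6A2, COL1A1 and COL1A2 cover 5386, 9819 and 11156 bases. No order was computed with these lengths. COL6A1 came next in received cells with 398 ± 12.5 CPM per kb, against 265 ± 23.3 CPM per kb in not-received cells, and COL6A3, a far longer chain, with 167 ± 5.60 and 177 ± 28.9 CPM per kb. COL5A1 was at 95.6 ± 2.17 and 94.5 ± 12.6 CPM per kb.

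Type VI collagen is built from heterotrimers of the chains of COL6A1, COL6A2 and COL6A3, which assemble into beaded microfilaments around cells. COL6A1 had 1271, 1199 and 1212 CPM in the received libraries and 750.4, 893 and 804 CPM in the not-received libraries. Every received library lay above every not-received library, and the log2 fold change was 0.59 ± 0.07 (SE, edgeR adjusted p = 6.21e-05). COL6A2, the gene next to COL6A1 on chromosome 21, had 2031, 1899 and 1971 CPM in received and 1313, 1475 and 1394 CPM in not-received libraries. Again the groups did not overlap, with a log2 fold change of 0.50 ± 0.06 (by edgeR, adjusted p = 1.08e-04).

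COL6A3, which encodes the long chain of type VI collagen and lies on another chromosome, was not called. It had 1586, 1651 and 1546 CPM in received and 1528, 2003 and 1523 CPM in not-received libraries, with not-received replicate 2 above all others. The log2 fold change was -0.08 ± 0.10 (edgeR adjusted p = 0.626) and 0.06 without not-received replicate 2 (adjusted p = 0.349). The ratio of COL6A3 to COL6A1 counts, which needs no scaling between libraries, was 1.25, 1.38 and 1.28 in received and 2.04, 2.24 and 1.89 in not-received libraries. The received libraries all lay lower, with a difference in the log2 ratio of -0.66 (exact permutation test, two-sided, p = 0.1, the minimum for 3 against 3 libraries; adjusted over 6 ratios, 0.15). The ratio of COL6A1 to COL6A2 was 0.626, 0.631 and 0.615 in received and 0.572, 0.606 and 0.577 in not-received libraries, a difference in the log2 ratio of 0.09 (exact two-sided permutation p = 0.1, adjusted 0.15). The other type VI genes were at or near 0: COL6A5 had 0 counts, and COL6A6 had 1 count summed over received and 8 over not-received libraries.

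**Figure D1:**
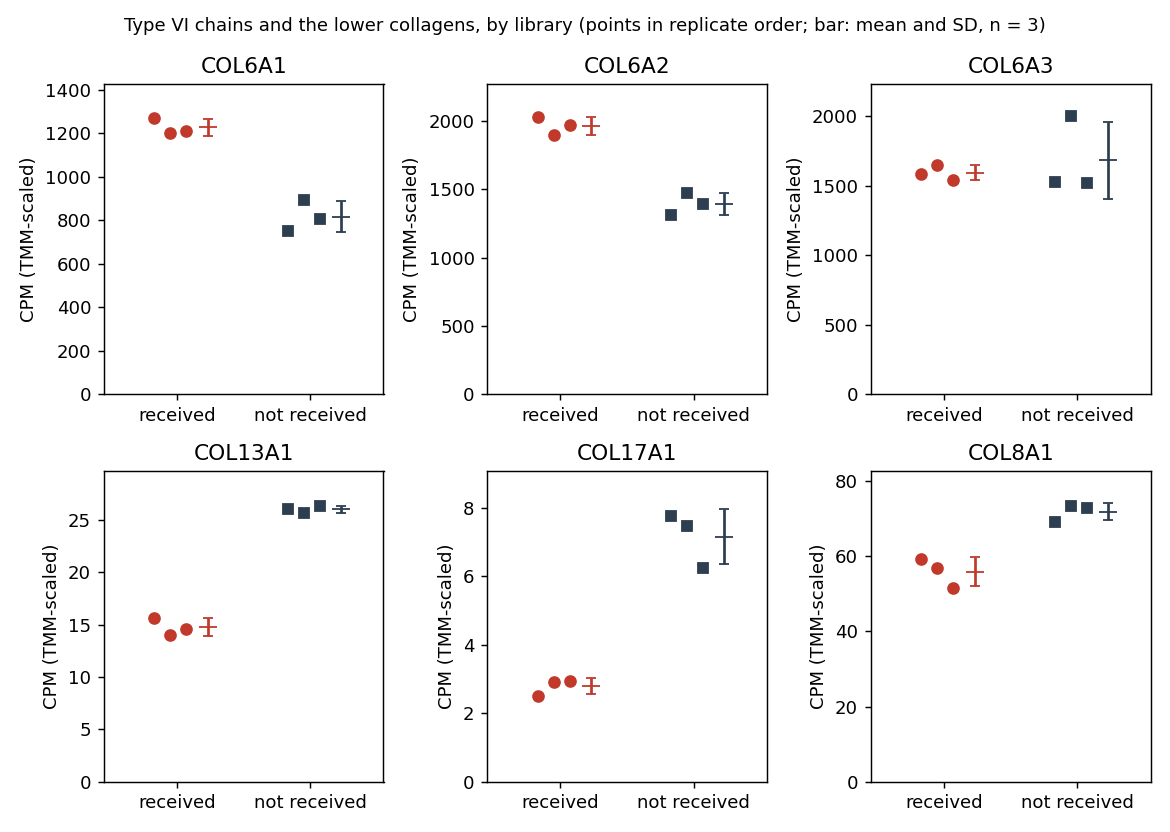
TMM-scaled CPM (linear axes from 0) of COL6A1, COL6A2, COL6A3, COL13A1, COL17A1 and COL8A1 in the 3 received (red circles) and 3 not-received libraries (dark squares), with the mean and SD beside them. COL6A1 and COL6A2 lie higher and COL13A1, COL17A1 and COL8A1 lower in every received library, while for COL6A3 not-received replicate 2 (2003 CPM) stands above the rest.

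Membrane-spanning collagens cross the plasma membrane with their collagenous part outside the cell. COL17A1, the collagen of hemidesmosomes in epithelia, had 2.51, 2.90 and 2.95 CPM in received and 7.77, 7.47 and 6.23 CPM in not-received libraries. All received libraries lay below all not-received libraries and the log2 fold change of -1.36 ± 0.17 was the largest among the called collagens (edgeR adjusted p = 1.24e-04). COL13A1, a collagen of cell adhesion sites and the neuromuscular junction, had 15.7, 14.0 and 14.6 CPM in received and 26.1, 25.6 and 26.3 CPM in not-received libraries. The groups lay far apart, with an SD of 0.854 CPM among received and 0.344 CPM among not-received libraries, and the log2 fold change was -0.82 ± 0.08 (edgeR adjusted p = 2.74e-05). The other genes of this kind, COL23A1 and COL25A1, had 0 counts in every library, which allows up to 0.0522 CPM over the received and 0.0348 CPM over the not-received libraries (3 counts over the group, counting error only).

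The network-forming collagens form hexagonal lattices, type VIII in vessel walls and the cornea. COL8A1 had 59.2, 56.9 and 51.7 CPM in received and 69.3, 73.4 and 72.8 CPM in not-received libraries. The groups did not overlap (log2 fold change -0.36 ± 0.07, edgeR adjusted p = 0.00311). COL8A2, the other type VIII chain, was low, with 1.72, 1.02 and 1.78 CPM in received and 0.760, 0.881 and 0.863 CPM in not-received libraries, and missed the threshold (log2 fold change 0.84 ± 0.31, edgeR adjusted p = 0.0715). COL10A1, the collagen of growth-plate cartilage, had 23 counts summed over received and 33 over not-received libraries and was not tested. Scaled for depth its means were 0.394 and 0.309 CPM.

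COL7A1, the anchoring-fibril chain, had 447, 423 and 513 CPM in received and 421, 437 and 231 CPM in not-received libraries. Not-received replicate 3 alone was low, and the gene was uncalled (log2 fold change 0.34 ± 0.29, edgeR adjusted p = 0.475). Without that library the log2 fold change was 0.10 (adjusted p = 0.394). Of the multiplexins, whose cleaved ends include endostatin, COL15A1 was at 4.69 ± 0.644 CPM in received and 4.36 ± 0.795 CPM in not-received libraries and was not called. COL18A1 had 28 and 32 counts in all, with means of 0.471 and 0.405 CPM when scaled for depth. Of its annotated exon bases 16.4% are shared with SLC19A1 on the opposite strand, so its level is uncertain.

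Type IV chains form the sheet-like network of basement membranes, most widely as trimers of COL4A1 and COL4A2. COL4A2 had 17.8, 19.8 and 19.1 CPM in received and 15.9, 15.8 and 14.2 CPM in not-received libraries. The groups did not overlap and the log2 fold change was 0.30 ± 0.09 (edgeR adjusted p = 0.0364). The call ended without any 1 received library or without not-received replicate 3 (adjusted p = 0.0626 to 0.140) and with DESeq2 (adjusted p = 0.0828). COL4A1, its head-to-head neighbour, had 0 counts in each received library and 4, 23 and 7 counts in the not-received libraries. Set against a floor of 3 counts over the received libraries, the 34 counts over the not-received libraries stood 7.57-fold higher for the depth sequenced. This leaves out the counting error of the 34, of which 23 came from not-received replicate 2, so 7.57 is not a lower bound. With no low-count filter COL4A1 was called lower (edgeR adjusted p = 3.62e-04). Its annotated exons overlap no other gene, and the sources used here do not say how reads were assigned. A level this far below that of COL4A2, a chain of the same trimer, is therefore uncertain.

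COL4A5, which pairs with COL4A3 and COL4A4 or with COL4A6, was at 34.4 ± 0.573 CPM in received and 31.1 ± 3.99 CPM in not-received libraries, and COL4A6 at 14.3 ± 2.19 and 15.9 ± 2.41 CPM. Neither was called (log2 fold changes 0.14 ± 0.09 and -0.16 ± 0.13, edgeR adjusted p = 0.308 and 0.423). The ratio of COL4A5 to COL4A6 was 2.65, 2.04 and 2.61 in received and 1.85, 1.98 and 2.04 in not-received libraries. Received replicate 2 and not-received replicate 3 nearly met (difference in the log2 ratio 0.31, exact two-sided permutation p = 0.1, adjusted 0.15). COL4A3 and COL4A4, the chains of the kidney filter's membrane, were each under 1 CPM in every library. COL4A4 had log2 fold change -0.88 ± 0.41, with all received libraries below all not-received ones, and was not called (edgeR adjusted p = 0.15).

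**Figure D2:**
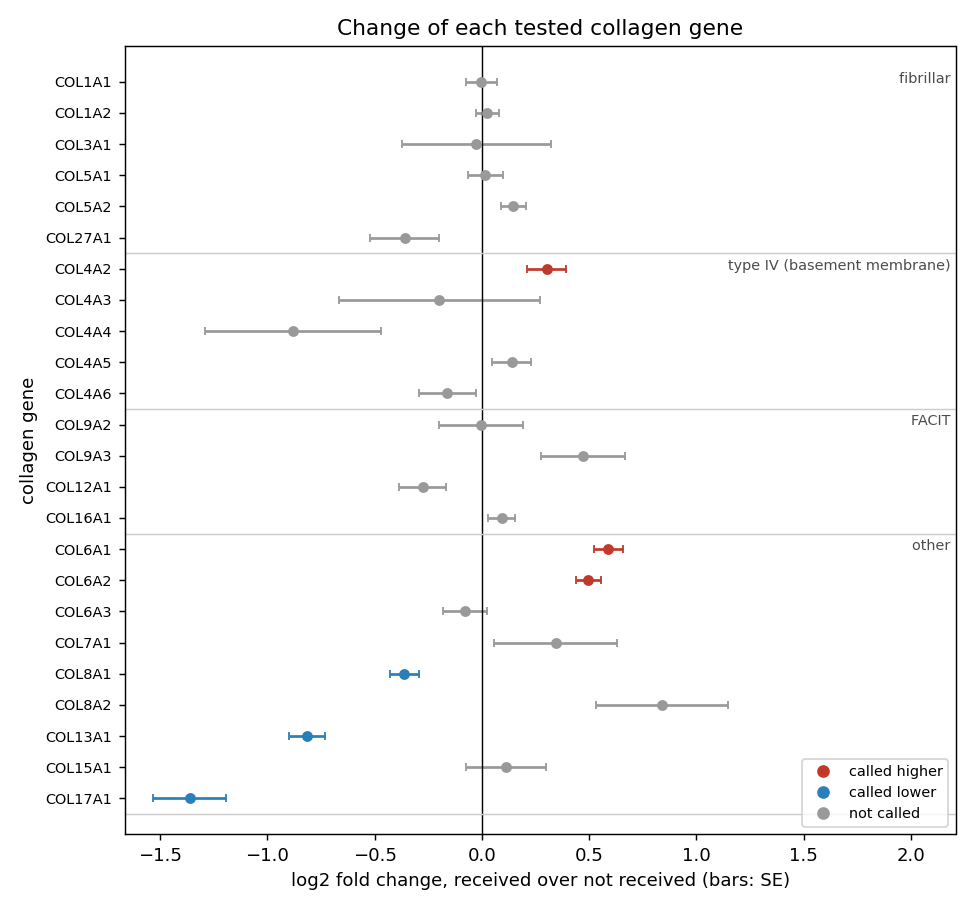
Log2 fold change of each of the 24 tested collagens, received over not received, with its SE, grouped by class; red and blue points are called higher and lower by edgeR and grey points are not called. The 6 fibrillar chains are grey, COL6A1 and COL6A2 are red at 0.59 and 0.50, and COL17A1 lies farthest to the left at -1.36.

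Fibrillar collagens give tissues their tensile strength, type I as trimers of COL1A1 and COL1A2. COL1A1 had 1880, 1841 and 1958 CPM in received and 2046, 1976 and 1668 CPM in not-received libraries. The received libraries lay inside the range of the not-received libraries (log2 fold change -0.0027 ± 0.07, edgeR adjusted p = 0.985), and the sign turned in 9 of 13 alternative fits. COL1A2 had 2941, 2977 and 2856 CPM in received and 2904, 2923 and 2791 CPM in not-received libraries. These ranges overlapped as well (log2 fold change 0.03 ± 0.05, edgeR adjusted p = 0.777). The ratio of COL1A1 to COL1A2 was 0.639, 0.619 and 0.685 in received and 0.704, 0.676 and 0.597 in not-received libraries (exact two-sided permutation p = 0.9).

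Type V collagen is built into type I fibrils and limits their width. COL5A1 had 541, 521 and 519 CPM in received and 527, 587 and 449 CPM in not-received libraries, and the groups overlapped (log2 fold change 0.02 ± 0.08, edgeR adjusted p = 0.912). COL5A2 had 168, 168 and 163 CPM in received and 147, 159 and 145 CPM in not-received libraries. Its groups did not overlap, but the difference was small and uncalled (log2 fold change 0.15 ± 0.06, edgeR adjusted p = 0.0966). It was called without not-received replicate 2 (log2 fold change 0.19, adjusted p = 0.0153) and with scaling by library size alone (adjusted p = 0.0391). The ratio of COL5A1 to COL5A2 was 3.10 to 3.21 in received and 3.09 to 3.70 in not-received libraries (exact two-sided permutation p = 0.4, adjusted 0.48).

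COL27A1, a fibrillar chain of cartilage, had 38.8, 38.9 and 44.5 CPM in received and 53.5, 62.5 and 39.9 CPM in not-received libraries, and missed the threshold (log2 fold change -0.36 ± 0.16, edgeR adjusted p = 0.165). Not-received replicate 3 overlapped with the received libraries, and without it the gene was called lower (log2 fold change -0.52, edgeR adjusted p = 0.0039). It was also called lower with DESeq2 (adjusted p = 0.0438) and with no low-count filter. COL3A1, the chain of reticular fibres in skin and vessels, was at 0.938 ± 0.395 CPM in received and 0.945 ± 0.154 CPM in not-received libraries. It lies beside COL5A2 in the genome, and in these libraries its level was far below that of COL5A2 (0.213 and 37.0 CPM per kb in received, 0.215 and 33.4 CPM per kb in not-received cells). COL2A1 had 0 counts, and COL5A3, COL11A1, COL11A2 and COL24A1 had 9, 5, 0 and 6 counts summed over received and 10, 6, 4 and 1 over not-received libraries.

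FACIT collagens have interrupted triple helices and attach to fibrils of other collagens. COL16A1 was the highest of them, with 144, 149 and 151 CPM in received and 147, 144 and 127 CPM in not-received libraries, and missed the threshold (log2 fold change 0.09 ± 0.06, edgeR adjusted p = 0.34). COL12A1, which binds type I fibrils, had 42.1, 44.6 and 43.4 CPM in received and 47.9, 62.8 and 45.9 CPM in not-received libraries. The received libraries all lay lower, without a call (log2 fold change -0.28 ± 0.11, edgeR adjusted p = 0.102). The gene was called lower without not-received replicate 3 (adjusted p = 0.0389), with no low-count filter (adjusted p = 0.00548) and when replicate number entered as a block (adjusted p = 0.0491).

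Type IX collagen decorates the fibrils of cartilage. COL9A3 had 3.86, 3.59 and 3.28 CPM in received and 2.72, 2.55 and 2.49 CPM in not-received libraries, all received libraries lying higher, and missed the threshold (log2 fold change 0.47 ± 0.20, edgeR adjusted p = 0.112). COL9A2 was at 3.62 ± 0.521 CPM in received and 3.61 ± 0.523 CPM in not-received libraries. COL9A1, COL20A1 and COL22A1 had 0 counts. COL14A1, COL19A1 and COL21A1 did not pass the filter, with 2, 26 and 13 counts summed over received and 2, 21 and 45 over not-received libraries. In all, 7 collagens had no counts in any library and 13 others had counts but were not tested. Those not yet named are COL26A1, with 1 and 11 counts in all, and COL28A1, with 10 and 9.

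**Figure D3:**
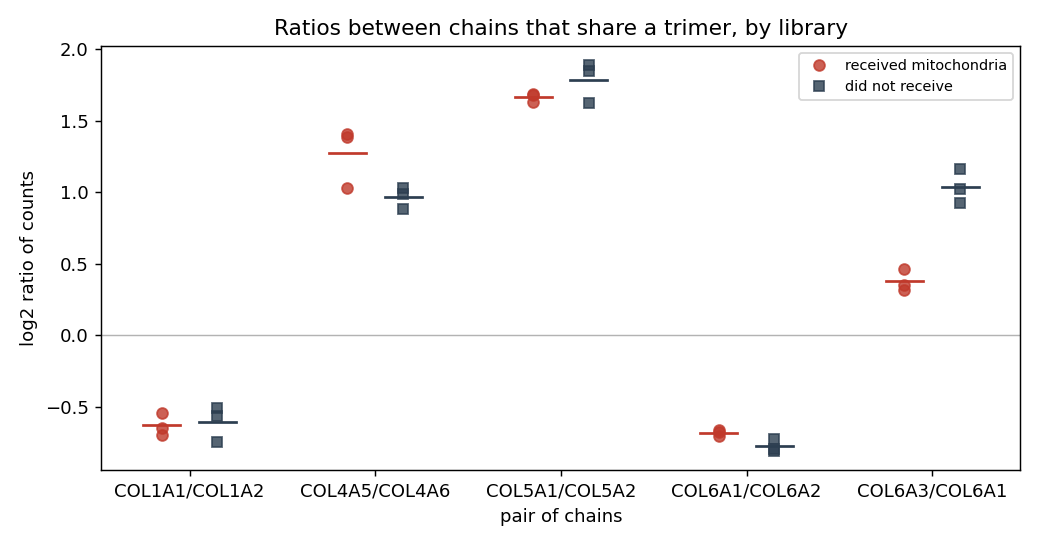
Log2 ratio of the counts of chains that share a trimer, in each received (red circles) and not-received library (dark squares), with lines at the group means; the pair COL4A1 and COL4A2 is left out because COL4A1 had 0 counts in the received libraries. The ratio of COL6A3 to COL6A1 is lower in all received libraries (1.25 to 1.38 against 1.89 to 2.24 as plain ratios), while the groups overlap for COL1A1 to COL1A2 and COL5A1 to COL5A2.

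Most collagen genes have few annotated exon bases in common with other genes, and 6 antisense symbols named after collagens had at most 35 counts in any library. Whether the counting used strand is not stated in the sources used. In these bulk libraries fewer collagen-making cells cannot be told apart from less RNA per cell.

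Genes that modify, export, process, crosslink and bind collagens went in both directions. Of 59 such genes 45 were tested, and 5 rose and 9 fell. That is 31.1% of those tested, where 18.9% of all genes were called (9.21% higher and 9.67% lower). The median log2 fold change of the 45 was -0.04. By role, 1 rose and 2 fell of 14 hydroxylation genes, and 1 rose and 2 fell of 10 folding and export genes. Of 5 propeptide-removal genes 1 rose, of 4 crosslinking genes 1 fell, of 5 fibril-binding genes 1 rose, and of 7 receptors 1 rose and 4 fell. The count of 9 was 5, 3 and 5 without received replicate 1, 2 and 3, and the count of 5 was 3 without received replicate 1.

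The enzymes that hydroxylate prolines and lysines, on which the stability and crosslinks of the helix depend, were mostly not called (11 of 14). P4HA1 and P4HA2 are catalytic subunits of prolyl 4-hydroxylase. P4HA1 was at 240 ± 24.4 CPM in received and 262 ± 13.3 CPM in not-received cells, and P4HA2 at 439 ± 19.4 and 400.4 ± 8.57 CPM. They had log2 fold changes of -0.13 ± 0.07 and 0.13 ± 0.06 (edgeR adjusted p = 0.225 and 0.108); P4HA2 was called with scaling by library size alone (adjusted p = 0.0482). PLOD2, which hydroxylates telopeptide lysines, was at 541 ± 35.8 CPM in received and 523 ± 36.5 CPM in not-received libraries and was not called. The lysyl hydroxylase PLOD3 fell by 0.24 ± 0.06 on the log2 scale and P3H4, a partner of the prolyl 3-hydroxylases, rose by 0.25 ± 0.06 (edgeR adjusted p = 0.0118 and 0.0106). The call of PLOD3 ended without received replicate 1 or 2 and that of P3H4 without received replicate 1 (adjusted p up to 0.0851). PLOD1 was at the threshold (log2 fold change -0.17 ± 0.06, edgeR adjusted p = 0.0497) and lost its call in 10 of 13 alternatives.

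Among folding and export genes, SERPINH1, the collagen chaperone HSP47, was at 424 ± 19.9 CPM in received and 425 ± 43.4 CPM in not-received libraries (edgeR adjusted p = 0.98). FKBP14, a prolyl isomerase of the endoplasmic reticulum, rose by 0.27 ± 0.07 on the log2 scale (edgeR adjusted p = 0.0136), with 53.9, 52.2 and 51.5 CPM in received and 43.6, 44.5 and 42.8 CPM in not-received libraries. TMEM131, which helps procollagen leave the cell, had 107, 104 and 104 CPM in received and 126, 151 and 131 CPM in not-received libraries, a fall of 0.37 ± 0.07 (edgeR adjusted p = 0.00268). CREB3L1, a transcription factor that activates collagen genes in bone, fell by 0.26 ± 0.06 (edgeR adjusted p = 0.0115). The call of FKBP14 ended without received replicate 1 or 2 and that of CREB3L1 without received replicate 2 or 3 (adjusted p up to 0.0807).

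**Figure D4:**
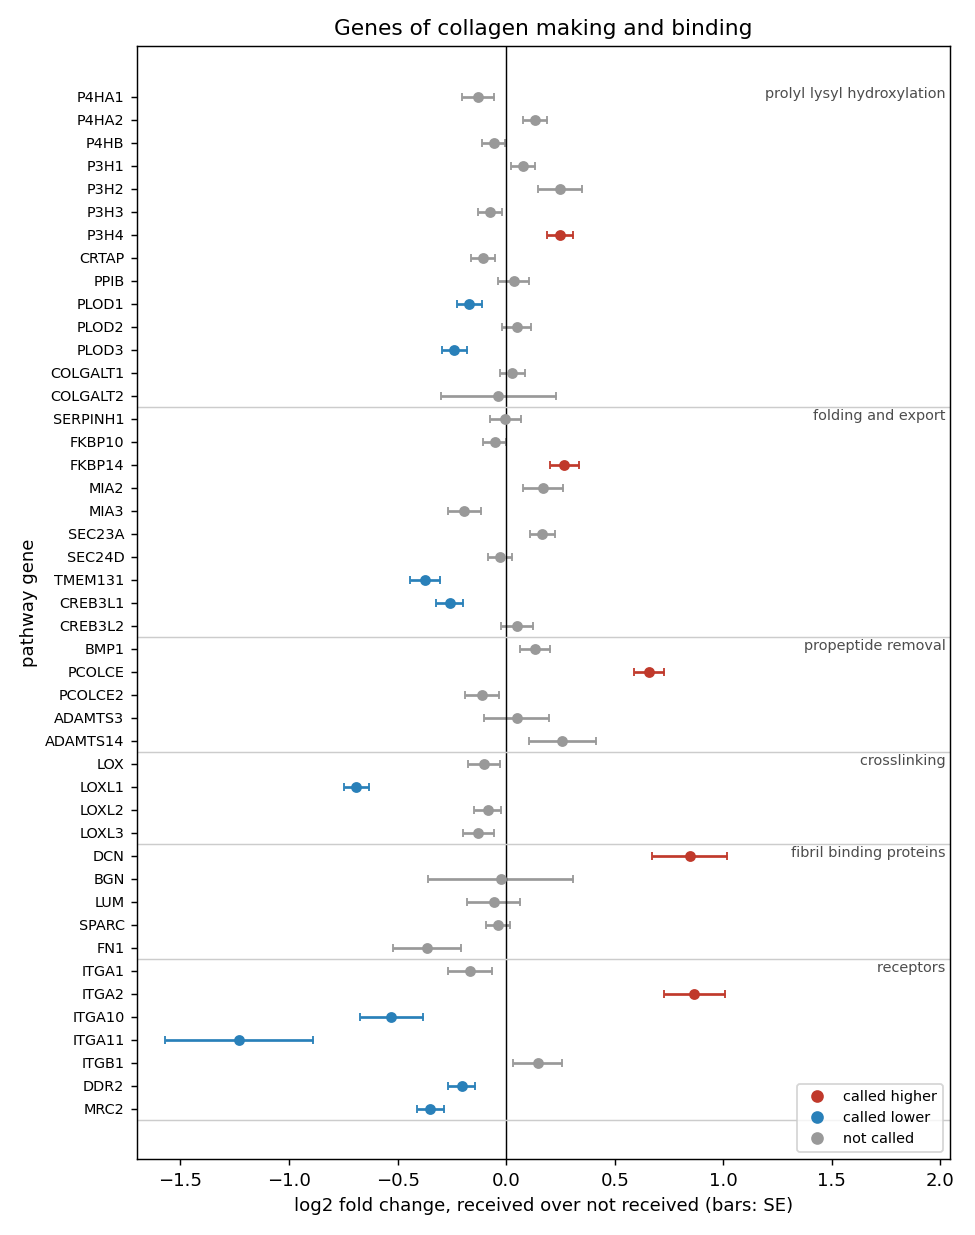
Log2 fold change of the 45 tested genes of collagen modification, export, processing, crosslinking, fibril binding and cell-surface receptors, received over not received, with its SE; red and blue points are called higher and lower by edgeR and grey points are not called. ITGA2, DCN and PCOLCE lie farthest right among the called genes (0.87, 0.85 and 0.66), and ITGA11 and LOXL1 lie at -1.23 and -0.69.

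PCOLCE, a secreted protein that speeds removal of the C-terminal propeptide from fibrillar procollagens, had 78.7, 86.4 and 86.5 CPM in received and 52.7, 51.3 and 55.7 CPM in not-received libraries. The groups lay well apart, with a log2 fold change of 0.66 ± 0.07 (by edgeR, adjusted p = 2.88e-05). BMP1, the protease that PCOLCE assists, had 93.9, 93.3 and 104 CPM in received and 91.3, 92.6 and 81.1 CPM in not-received libraries and was not called (edgeR adjusted p = 0.197). LOXL1, a lysyl oxidase best known for elastic fibres, had 188, 178 and 194 CPM in received and 308, 305 and 289 CPM in not-received libraries, a fall of 0.69 ± 0.06 (edgeR adjusted p = 4.63e-06). LOX itself, which crosslinks collagen and elastin, was at 1212 ± 128 CPM in received and 1302 ± 49.8 CPM in not-received libraries and was not called (edgeR adjusted p = 0.346). DCN, the fibril-binding proteoglycan decorin, rose, with 5.58, 6.65 and 6.61 CPM in received and 3.53, 3.04 and 3.98 CPM in not-received libraries (log2 fold change 0.85 ± 0.17, edgeR adjusted p = 0.00442). FN1, the matrix protein fibronectin, had 1331, 1403 and 1280 CPM in received and 1454, 2156 and 1550 CPM in not-received libraries. All received libraries lay lower and not-received replicate 2 stood above the rest, without a call (log2 fold change -0.36 ± 0.16, edgeR adjusted p = 0.171). FN1 was called lower with no low-count filter, with the replicate block and without not-received replicate 2.

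The receptors that bind collagen split, with the alpha 2 integrin chain rising, 4 others falling and 2 not called. ITGA2, which pairs with ITGB1, had 32.8, 38.6 and 30.8 CPM in received and 15.2, 22.3 and 17.8 CPM in not-received libraries, a log2 fold change of 0.87 ± 0.14 (by edgeR, adjusted p = 0.00309). ITGB1 had 1275, 1382 and 1274 CPM in received and 998, 1396 and 1160 CPM in not-received libraries, where not-received replicate 2 was highest. It was uncalled (log2 fold change 0.14 ± 0.11, edgeR adjusted p = 0.404), but was called higher without not-received replicate 2 (0.28, adjusted p = 0.00224). MRC2, the endocytic collagen receptor Endo180, fell by 0.35 ± 0.06, with 131, 129 and 133 CPM in received and 175, 172 and 154 CPM in not-received libraries (edgeR adjusted p = 0.00185).

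ITGA10 and ITGA11, further collagen-binding integrin chains, fell by 0.53 ± 0.15 and 1.23 ± 0.34 (edgeR adjusted p = 0.0228 and 0.0229). ITGA11 was low, at 0.475 ± 0.118 CPM in received and 1.12 ± 0.184 CPM in not-received libraries. ITGA10 was at 6.04 ± 0.697 and 8.72 ± 1.13 CPM. The more abundant collagen-binding chain ITGA1 was at 35.4 ± 1.66 and 39.4 ± 6.10 CPM. Its groups overlapped and it was not called (edgeR adjusted p = 0.277). DDR2, a receptor kinase activated by fibrillar collagen, was at 122 ± 5.27 CPM in received and 140 ± 7.27 CPM in not-received libraries, a fall of 0.20 ± 0.06 (edgeR adjusted p = 0.0338). These receptor calls were less stable: ITGA10 lost its call without received replicate 1 or 2 or not-received replicate 1, and ITGA11 and DDR2 each lost theirs in 5 alternatives (adjusted p up to 0.165). DDR1, the other such kinase, had 3 counts summed over received and 35 over not-received libraries and did not pass the filter. The not-received libraries had 2, 25 and 8 counts, most of them in replicate 2, the deepest library. With no low-count filter DDR1 was called lower.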

How the data were processed

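The authors deposited 1 file per library of unnormalized read counts by gene symbol. Per the labels, poly-T captured mRNA was read as 150 bp pairs on a NovaSeq instrument. DESeq and R 3.6.1 appear in the submitters' processing notes; the sources used here do not give aligner, counter, build or annotation. Genes were kept with filterByExpr (14100 of 28833 with a count), scaled with TMM and tested with glmQLFit and glmQLFTest (robust) of edgeR 4.0.16 in R 4.3.3, with the group as the single term. Alternatives used DESeq2 1.42.0, limma-voom 3.58.1, other scalings and filters, a replicate block and each library left out. Standard errors (SE) were taken as |log2 fold change| over the square root of the F statistic. Ratios of chains used a pseudocount of 0.5 and an exact permutation test over 6 ratios. The steps were also run on simulated counts drawn with the same spread for all libraries. Those counts held neither an outlying library nor replicates from a shared culture, so the run cannot vouch for the calls here. The members and lists were chosen with earlier results of these data known. Named in full are called collagens (mean log2 CPM from 0 up), the 6 highest per kb, and among pathway genes the 4 largest called changes each way (mean log2 CPM from 1 up) plus LOX, SERPINH1, P4HA1, P4HA2, PLOD2, ITGB1, DDR1 and DDR2. Per-library values of other genes were added after their values were seen. Coding lengths came from GENCODE, promoters from RefSeq. Library depth sets precision: 3 counts are 0.0647 CPM in the deepest and 0.168 CPM in the shallowest library.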

Additional observations from a re-analysis of the deposited data

How the results depend on the processing

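COL6A1, COL6A2, COL8A1, COL13A1 and COL17A1 kept their calls and directions in all 13 alternatives, with log2 fold changes of 0.53 to 0.66, 0.46 to 0.54, -0.40 to -0.30, -0.86 to -0.77 and -1.45 to -1.29. Over 44 single genes and all alternatives, 497 of 569 values kept direction and side of the threshold, 35 lost a call and 10 gained one. The 27 that turned sign were uncalled in both fits. They were COL1A1 with DESeq2 (0.0011), at least 1 CPM in at least 3 samples (6.58e-04), library size alone (0.034), limma-voom (0.0020) and the replicate block (0.0023), COL3A1 and COL9A2 with library size alone (0.013 and 0.033), and SERPINH1 with library size alone (0.032) and limma-voom (0.0022). With single libraries left out, log2 fold changes ran from -0.087 to 0.056 for COL1A1, -0.41 to 0.16 for COL3A1, -0.64 to 0.20 for COL4A3, -0.081 to 0.11 for COL5A1, -0.15 to 0.063 for COL6A3, -0.12 to 0.13 for COL9A2, -9.82e-04 to 0.11 for PLOD2 and -0.059 to 0.082 for SERPINH1, and the COL1A1 to COL1A2 log2 ratio difference from -0.092 to 0.026. In those fits the calls over all genes ran from 604 to 1356 higher and 691 to 1579 lower, those of collagens from 2 to 4 higher and 3 to 5 lower, and those of the pathway from 3 to 7 higher and 3 to 9 lower. With no low-count filter 2084 genes and 6 collagens were called lower; the added collagens were COL4A1, COL27A1 and COL12A1. Deviations of same-numbered samples from their group means had correlations of -0.19, -0.04 and 0.04. With 3 libraries a group such correlations cannot exclude a pairing or a shared batch. The replicate block gave 2636 calls against 2662, kept all 6 collagens and added COL12A1. Scaling by library size alone moved the median over all genes by 0.036 and gave 1683 higher and 1110 lower calls, where TMM gave 1298 and 1364. The cause of these shifts was not tested. Low counts limit 20 of the 44 collagens.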
